A study of Mus musculus with 12 samples.

Results

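The Sp family of transcription factors was followed through 3 ORFtag screens in mouse embryonic stem cells. Its members were chosen by name as Sp1 to Sp9, which gave 9 of the 20409 genes in the insertion tables. ORFtag is a gene-trap method: a retroviral cassette carrying a promoter, a neomycin resistance gene and a protein tag with a splice donor lands at random in the genome, and transcription from it splices the tag to the next downstream exon of whichever gene it entered. Cells whose tagged protein changes a reporter were sorted by flow cytometry, and the integration sites in sorted and unsorted cells were sequenced. The activator screen used wild-type cells with a 7xTetO-pMYLPF-Puro-IRES-GFP reporter, silent at rest, and sorted GFP-positive cells. The repressor screen used wild-type cells whose reporter, named pEF1-BFP-7xTetO-pPGK-Puro-IRES-GFP, was active at rest, and sorted cells with reduced GFP. Both of these reporters sat at one expression-stable locus on Chr15, and the tag was TetR, which binds TetO DNA. The post-transcriptional gene regulation (PTGR) screen used wild-type cells with a randomly placed Puro-IRES-GFP-10xBoxB reporter and the λN tag, which binds boxB RNA. Its cells were sorted repeatedly for low GFP, the boxB sites were then removed by Cre, and cells whose GFP came back were kept. All cells carried the cassette and were selected with G418. The study describes the activator and PTGR reporter lines as clonal, and the repressor line as established earlier. Each screen had 2 sorted and 2 unsorted replicates, 12 libraries in all. The labels do not give the age or sex of the line, and insertion lists carry no expression values, so the embryonic stem cell identity could not be checked against markers here.

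Sp factors are zinc finger proteins that bind GC-rich boxes in the promoters of very many genes. Sp1 is the founding member and a general activator of GC-box promoters. Sp3 binds the same boxes and is known both as an activator and as a repressor, the latter when its inhibitory domain carries SUMO. Sp2 is a less studied ubiquitous member, and Sp4 is best known from neurons. These 4 have glutamine-rich regions ahead of the zinc fingers. The other members are shorter and more restricted: Sp5 is a Wnt target gene, Sp6 (epiprofin) acts in teeth and skin, Sp7 (osterix) drives osteoblast formation, Sp8 acts in limb and forebrain, and Sp9 in limb and forebrain interneurons. The longest annotated reading frames had 781 codons for Sp1, 613 for Sp2, 783 for Sp3 and 782 for Sp4, against 376 to 486 for Sp5 to Sp9. Glutamine codons (CAA or CAG) made up 11.5% of the frame in Sp1, 10.3% in Sp2 and 13.6% in Sp4, and 94 of the 783 codons of Sp3. The share was between 2.07% and 4.79% in Sp5 to Sp9. Each of the 9 frames held 3 runs of codons spaced like a C2H2 zinc finger.

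A fusion is made only where the cassette's donor meets a splice acceptor, so the acceptors are the sequences on which these measurements rest. The members lie in divergent pairs on 4 chromosomes, with Sp5 alone on another stretch of chromosome 2. In GRCm38, Sp1 (chr15:102406143-102436404, plus strand) faces away from Sp7 (chr15:102356606-102367182, minus strand). Sp2 (chr11:96953341-96982959, minus) faces away from Sp6 (chr11:97013394-97024734, plus). Sp3 (chr2:72936427-72980446, minus) faces away from Sp9 (chr2:73271925-73284706, plus), and Sp4 (chr12:118234933-118301440, minus) from Sp8 (chr12:118846329-118852576, plus). Sp5 is at chr2:70474923-70477729 on the plus strand. The starts of the paired genes are 39 kb apart for Sp1 and Sp7 and 30.4 kb apart for Sp2 and Sp6. They are 291.5 kb apart for Sp3 and Sp9 and 544.9 kb apart for Sp4 and Sp8. The 8 acceptors below took most of the insertions counted for Sp1, Sp2, Sp3, Sp6 and Sp7. Each is written 5′ to 3′ on the gene's strand, from the GRCm38 genome, with the last 18 intron bases in lower case and the first 12 exon bases in capitals.
Sp1 exon 2, chr15:102407754-102407783, plus: ttttgtaattatttttagACCAAGATCACT
Sp1 exon 4, chr15:102425613-102425642, plus: cttgtctttttatttcagGTGATCATGGAA
Sp2 untranslated exon 2, chr11:96981574-96981603, minus: agtaactttgcacactagAAATGGGGACAG
Sp2 coding exon 2, chr11:96963433-96963462, minus: attccatctttctcccagCAGATCCACAGA
Sp2 exon 3, chr11:96961998-96962027, minus: ttctgttgatttttgcagGACTCCCAGCCA
Sp3 exon 2, chr2:72979621-72979650, minus: cccgcgctgtgcctgcagCTCCCGAAAAGC
Sp6 exon 2, chr11:97021388-97021417, plus: catccttgccacttctagGTTCCATCTGAG
Sp7 exon 2, chr15:102359391-102359420, minus: ccccccctctctctacagGAAGAAGCTCAC
All 22 acceptors that any member's insertions were assigned to end their intron in AG, and all 3187 insertions counted for members pointed to an exon start present in the annotation.

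An insertion is a distinct genomic position and strand in 1 library, assigned to the first non-first exon within 200 kb downstream in the cassette's direction. The lists give neither reads nor cells per position, nor the reading frame of the fusion. Activator sorted libraries held 17397 and 14705 insertions, repressor sorted libraries 22266 and 15204, and PTGR sorted libraries 60980 and 58560. Unsorted libraries held 54088 to 233799, and all 6 together, the background, held 1022126. The study describes the replicates as biological, with a transduction rate for each. Fisher's exact test on summed libraries measures counting error only, and edgeR the spread between 2 libraries. Libraries also shared positions. The repressor sorted replicates had in common 59 positions at Sp1, 11 at Sp2 and 151 at Sp3, which was 25.5%, 18.3% and 25.3% of replicate 1. Over all genes they shared 18.8% of the positions of replicate 1. The activator sorted replicates shared 2.21% and the PTGR sorted replicates 0.648%. The 2 repressor sorted replicates may thus not be fully independent, which neither Fisher's exact test nor edgeR takes into account. Of the distinct sorted positions, 75 of 388 at Sp1, 10 of 91 at Sp2 and 140 of 882 at Sp3 were also listed in an unsorted library. The unsorted libraries of the repressor screen shared the most: 35.9% of their distinct Sp1 positions, 9 of 30 at Sp2 and 46.6% at Sp3 were also sorted positions, against 11.7%, 2.78% and 11.8% for the unsorted libraries of the other screens. Results are therefore given with and without these positions and libraries.

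In the repressor screen Sp1, Sp2 and Sp3 were far more frequent among sorted cells than in unsorted cells, and no other member was called. Sp3 had 598 and 435 insertions in the sorted replicates, or 269 and 286 per 10000 insertions. It had 7.63 and 7.35 per 10000 in the unsorted libraries of the same screen and 2.77 to 3.53 in the other 4 unsorted libraries. The repressor unsorted libraries thus lay above the other unsorted libraries at Sp3, and the sorted replicates lay far above all of them without overlap. Sp1 had 231 and 216 sorted insertions, or 104 and 142 per 10000, against 3.79 and 4.69 in the repressor unsorted libraries and 2.57 to 3.94 in the other unsorted libraries. Sp2 had 60 and 42 sorted insertions, or 26.9 and 27.6 per 10000, against 1.09 and 0.735 in the repressor unsorted libraries and 0.370 to 0.578 in the rest. Sorted means were 277 ± 12.4 for Sp3, 123 ± 27.1 for Sp1 and 27.3 ± 0.479 for Sp2 (SD, n = 2). The 3 genes together took 1582 sorted insertions, which was 3.99% and 4.56% of the 2 sorted replicates. Their joint share was 0.125% and 0.128% of the repressor unsorted libraries and 0.034% to 0.078% of the other 8 libraries.

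**Figure D1:**
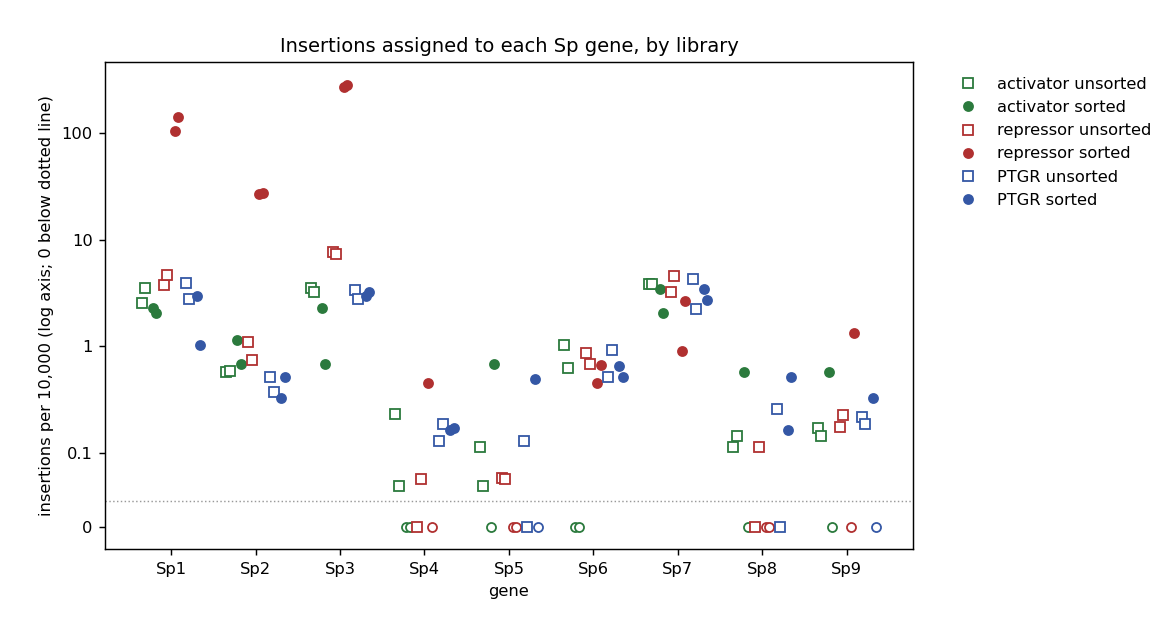
Insertions per 10000 insertions (log axis, with 0 drawn below the dotted line) at each Sp gene, 1 marker per library, circles for sorted and squares for unsorted cells, coloured by screen. In the repressor sorted libraries Sp1 (104 and 142), Sp2 (26.9 and 27.6) and Sp3 (269 and 286) stand above every other library, and no other member does so in both replicates.

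The test of the study was applied, a one-sided Fisher's exact test of the summed sorted libraries against the background with Benjamini-Hochberg adjustment. A call needed a log2 odds ratio of 1 or more and an adjusted p under 0.001. Of the 4 members with at least 3 sorted insertions, 3 were called in the repressor screen, where 8.18% of 2346 tested genes were called. Sp3 had a log2 odds ratio of 5.90 ± 0.08 (SE; 1033 of 37470 sorted against 485 of 1022126 background insertions), a share 58.1-fold above background. Sp2 reached 5.36 ± 0.23 (102 against 68 insertions, 40.9-fold, adjusted p = 1.11e-99 by Fisher's exact test). Sp1 reached 5.04 ± 0.10 (447 against 374 insertions, 32.6-fold). The adjusted p of Sp1 and Sp3 was too small for the computation to tell from 0. Each sorted replicate gave the same direction and a like size: 5.86 and 5.96 for Sp3, 5.34 and 5.38 for Sp2, and 4.84 and 5.30 for Sp1. These replicates shared 18.8% of positions over all genes, so their likeness may not come from fully separate samples. Among the 192 called genes Sp3 ranked 2nd by number of sorted insertions, Sp1 10th and Sp2 55th. By log2 odds ratio they ranked 18th, 61st and 44th, against a median of 4.30 over the called genes.

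All 3 calls held with each of these backgrounds. With the repressor screen's own unsorted libraries alone, where 7.67% of genes were called, the log2 odds ratios were 5.24 for Sp3, 4.90 for Sp2 and 4.83 for Sp1. With the unsorted libraries of the other 2 screens (8.27% called) they were 6.42, 5.67 and 5.17. Counting each sorted position once and leaving out every position seen in an unsorted library kept 742 positions at Sp3, 81 at Sp2 and 313 at Sp1, with values of 5.88, 5.48 and 4.99 (10.8% of genes called). edgeR's quasi-likelihood test on the 4 repressor libraries gave 6.00 for Sp3 (adjusted p = 3.13e-77), 5.69 for Sp2 (adjusted p = 9.73e-76) and 5.63 for Sp1 (adjusted p = 1.62e-75), where it called 6.48% of genes and DESeq2, which also called these 3, 3.4%. Sp2 passed edgeR's filter on low counts only with the help of the sorted libraries, where it is high. DESeq2, run without that filter, gave 5.23 for Sp2 (adjusted p = 3.57e-32 by DESeq2). The scaling of edgeR raises the median log2 change over all genes in the repressor screen by 0.79 relative to scaling by library totals. The order of the 3 genes was less certain than their calls. Sp3 exceeded Sp1 by 0.86 on the log2 scale (95% interval 0.60 to 1.11) and Sp2 by 0.54 (0.07 to 1.011). Sp2 and Sp1 differed by 0.31, with an interval from -0.17 to 0.80. Against the screen's own unsorted libraries, the interval of Sp3 minus Sp1 was 0.08 to 0.74 and that of Sp3 minus Sp2 was -0.27 to 0.94. These intervals cover counting error only.

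**Figure D2:**
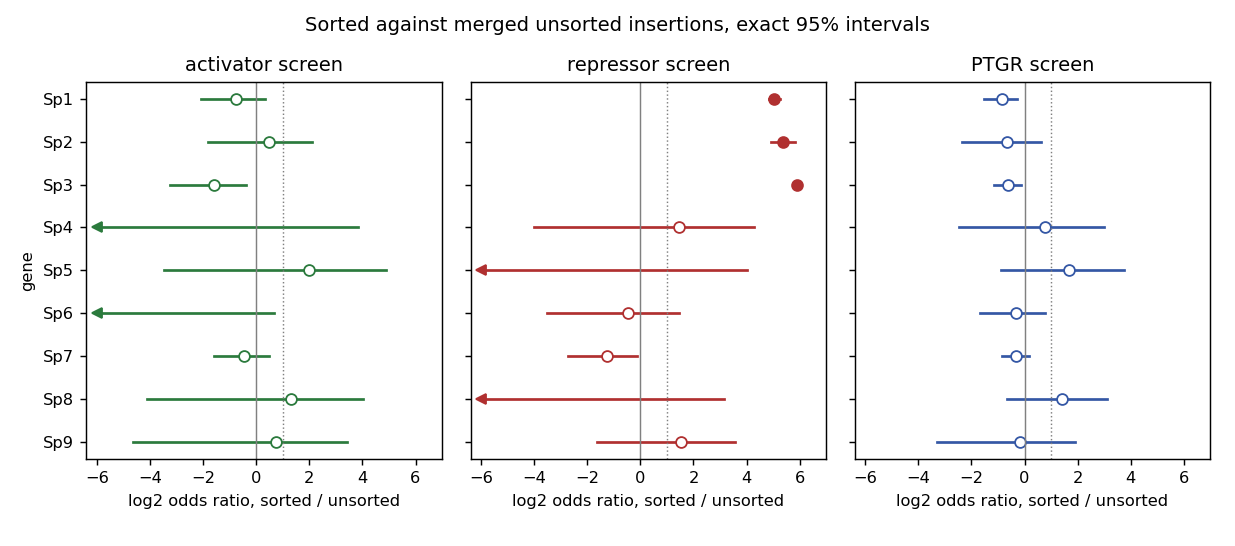
Log2 odds ratio of sorted against all unsorted insertions for each Sp gene, 1 panel per screen, with exact 95% intervals; filled points were called, the dotted line marks the log2 threshold of 1, and an arrow marks an interval with no lower end because no sorted insertion was seen. In the repressor screen Sp1 (5.04), Sp2 (5.36) and Sp3 (5.90) lie far above 0, whereas Sp1, Sp2, Sp3 and Sp7 range from -1.61 to 0.49 in the activator and PTGR panels.

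The remaining members differed widely in how often they were hit at all, which set what could be seen. Sp7, the osteoblast factor, was hit about as often as Sp1 in unsorted cells: 394 background insertions, with 3.21 and 4.52 per 10000 in the repressor unsorted libraries. It had 2 and 4 insertions in the repressor sorted replicates, 0.898 and 2.63 per 10000, so both sorted values lay below both unsorted values. Its log2 odds ratio was -1.27 (exact 95% interval -2.72 to -0.13), where the median over all tested genes was -0.39. With their own scaling, edgeR gave -0.46 for Sp7 (adjusted p = 0.76) and DESeq2 gave -0.93 (adjusted p = 0.497), so a drop was not established. Sp6, the epiprofin gene, had 75 background insertions and 1 and 1 in the sorted replicates, with a log2 odds ratio of -0.46 (-3.53 to 1.44). It would have been called with 13 sorted insertions, and Sp7 with 33.

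Sp4, Sp5, Sp8 and Sp9 had only 10, 8, 13 and 19 background insertions. Per library, unsorted levels ran from 0 to 0.228 per 10000 for Sp4 and from 0 to 0.128 for Sp5. They ran from 0 to 0.257 for Sp8 and from 0.144 to 0.226 for Sp9. In the repressor sorted libraries Sp4 had 1 insertion, Sp9 had 2, and Sp5 and Sp8 had 0, which over both replicates allows up to 0.801 per 10000. Between 5 and 7 sorted insertions would have been enough for a call at each of these 4 genes. The upper ends of the exact 95% intervals were 4.26 for Sp4, 4.00 for Sp5, 3.16 for Sp8 and 3.57 for Sp9. A log2 odds ratio as high as the lower end for Sp1, 4.84, was thus outside each interval against the merged background. Against the repressor screen's own unsorted libraries, where Sp4 had 1 insertion and Sp5 and Sp8 had 2 each, the upper ends were 9.52 for Sp4 and 5.64 for Sp5 and Sp8. The lower end for Sp1 was 4.56 there, so an increase of that size lies within the intervals of these 3 genes. The single or absent insertions at Sp4, the member with the highest glutamine share, leave its level in sorted cells close to unmeasured.

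The direction of the insertions separated Sp1 and Sp2 from their divergent neighbours Sp7 and Sp6, and it was also one-sided ahead of Sp3. In the 20 kb ahead of Sp1 exon 2 (chr15:102387772-102407771), repressor sorted cells had 392 insertions in the direction of Sp1 and 2 in the opposite direction, 99.5% in Sp1's direction. Unsorted cells had 304 and 292 in the same stretch (51.0%), activator sorted cells 5 and 4, and PTGR sorted cells 22 and 22. Each of the 292 unsorted insertions in the opposite direction was assigned to Sp7. Insertions in the direction of Sp1 stood at 87.6 and 130 per 10000 in the repressor sorted replicates, and opposite insertions at 0.449 and 0.658. The 20 kb ahead of Sp2 coding exon 2 (chr11:96963445-96983444) held 59 insertions in the direction of Sp2 and 2 opposite in repressor sorted cells (96.7%), against 38 and 48 in unsorted cells (44.2%), the 48 being Sp6 insertions. The 80 kb ahead of Sp3 exon 2 (chr2:72979633-73059632) held 1024 and 6 (99.4%), against 465 and 345 in unsorted cells (57.4%). Here the unsorted libraries were not alike: 76.7% and 69.8% of insertions in the repressor unsorted libraries ran in the direction of Sp3, against 50.9% and 42.7% in the activator unsorted libraries. The 345 opposite insertions were more than 200 kb from the Sp9 acceptor and were not counted for Sp9. They entered only the test of reversed insertions, where such insertions count for Sp3.

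**Figure D3:**
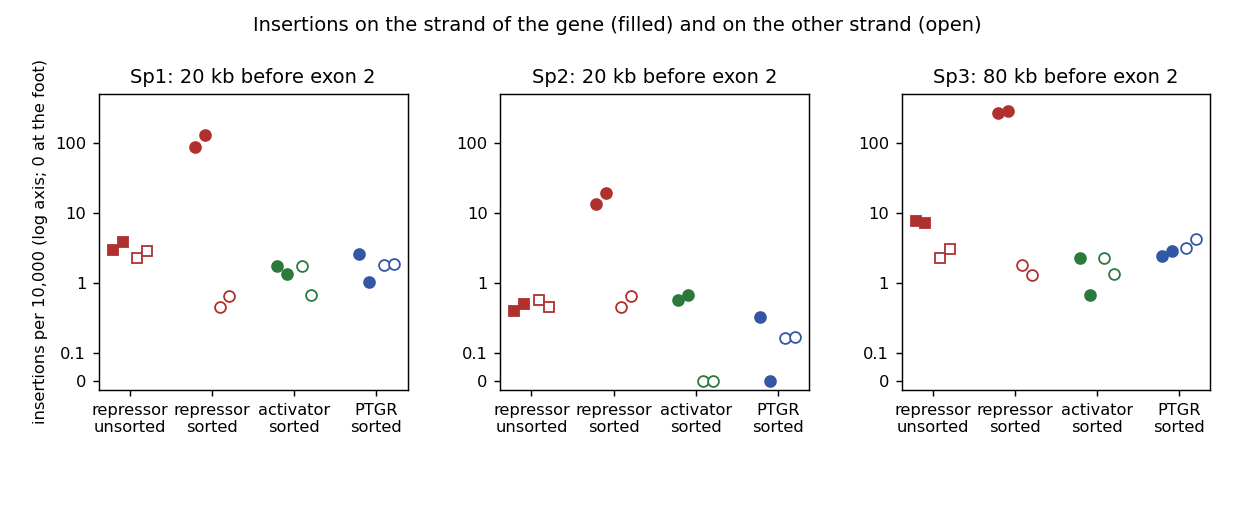
Insertions per 10000 (log axis, 0 at the foot) in the stretch before exon 2 of Sp1 (20 kb), Sp2 (20 kb) and Sp3 (80 kb), 1 marker per library, filled for the gene's own direction and open for the opposite one. In repressor sorted cells the Sp1 stretch stands at 87.6 and 130 in the direction of the gene and at 0.449 and 0.658 in the other, and the filled and open markers part in the same way at Sp2 and Sp3.

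The same geometry appeared when each insertion was read in the reverse direction, the study's caution flag for a called gene. The reversed assignment called 2 members in the repressor screen, where 5.61% of 2229 genes were called. They were Sp7 (445 sorted against 423 background insertions, log2 odds ratio 5.12 ± 0.10) and Sp6 (100 against 65, 5.66 ± 0.23, adjusted p = 1.36e-105 by Fisher's exact test). All 445 reversed insertions at Sp7 were the insertions counted for Sp1, and all 100 at Sp6 were those counted for Sp2. Neither Sp7 nor Sp6 was called for insertions in its own direction. The called members carried no such flag: reversed insertions numbered 3 sorted against 361 background at Sp1, 2 against 73 at Sp2 and 6 against 357 at Sp3. No member was called for reversed insertions in the activator screen (3.14% of genes called) or the PTGR screen (0.5%), where 0 of 4 and 2 of 7 tested members had an unadjusted p below 0.05 by Fisher's exact test (Sp8 and Sp9 in the PTGR screen).

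Most insertions were assigned to exon 2, ahead of most or all of the reading frame. At Sp1, 431 of 447 repressor sorted insertions went to exon 2 (96.4%, 95% Wilson interval 94.3 to 97.8), which has 2 codons of the reading frame ahead of it, against 92.8% of unsorted insertions (89.7 to 94.99). Exon 4 of Sp1, with 557 of the 781 codons ahead of it, took 14 sorted insertions (11 and 3 in the replicates) against 22 in the background. That gave a log2 odds ratio of 4.12 (exact 95% interval 3.04 to 5.15), against 5.10 (4.89 to 5.31) for exon 2. A fusion at exon 4 would lack 81 of the 90 glutamine codons of Sp1 and keep all 3 zinc finger patterns. No sorted insertion went to exon 5 or to exon 6, which had 4 and 1 in the background. Exon 6 is the one Sp1 acceptor here inside the finger region, so fusions that cut into the fingers were too rare to compare.

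Sp2 was entered through several exons, and each of the 4 acceptors with sorted insertions had an interval above 0. Its untranslated exon 2 took 21 sorted against 20 background insertions (log2 odds ratio 4.84, 3.89 to 5.80). Coding exon 2 took 59 against 37 (5.45, 4.83 to 6.08). Exon 3, with 29 codons ahead of it, took 18 against 7 (6.13, 4.81 to 7.64), of which 16 were in replicate 1 and 2 in replicate 2. Exon 4, with 353 of 613 codons and 43 of 63 glutamine codons ahead of it, took 4 against 3 (5.18, 2.62 to 7.96). The 4 intervals overlap. The share of sorted insertions at either exon 2 was 78.4% (69.5 to 85.3) against 83.8% in unsorted cells (73.3 to 90.7), with 71.7% and 88.1% in the sorted replicates. Sp3 was entered almost solely at exon 2, which took 1031 of 1033 sorted and 481 of 485 background insertions (5.91, 5.75 to 6.07). Exon 3 took the other 2 sorted insertions, and later exons took 4 in the background and none in sorted cells.

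**Figure D4:**
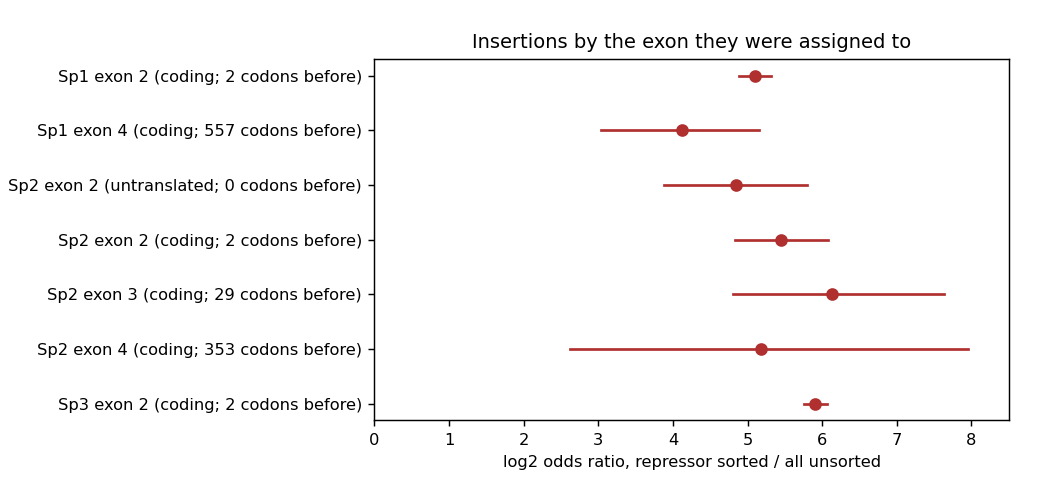
Log2 odds ratio of repressor sorted against all unsorted insertions by the exon they were assigned to, points with exact 95% intervals, for the acceptors of Sp1, Sp2 and Sp3 described here. Exon 2 values are 5.10 for Sp1, 5.45 for Sp2 (coding) and 5.91 for Sp3, and the interval of Sp1 exon 4 (3.04 to 5.15) overlaps that of Sp1 exon 2 (4.89 to 5.31) over a short range.

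Insertions lay mostly upstream of the genes at Sp1 and Sp3 and inside the gene at Sp2. At Sp1, 96.0% of repressor sorted insertions were upstream of the annotated gene start, at a median of 10446 bp from the acceptor, against 92.0% and 10197 bp in unsorted cells. At Sp2, 76.5% lay in introns and 20.6% upstream, with a median of 11568 bp, against 12229 bp in unsorted cells. Sorted insertions at Sp3 reached much farther: 99.0% were upstream, at a median of 43573 bp (interquartile range 36550 to 52321), 43394 and 43870 bp in the replicates. The unsorted libraries of the activator and PTGR screens had a median of 25300 bp at Sp3, and those of the repressor screen 42121 bp. The distance class of 40 to 50 kb held 429 of the Sp3 sorted insertions (244 and 185; 41.5%), 34 of 222 in the activator and PTGR unsorted libraries (15.3%) and 94 of 263 in the repressor unsorted libraries. The class of 10 to 20 kb held 70 sorted (48 and 22; 6.78%) against 74 of 222 (33.3%) and 51 of 263 in those same libraries. Relative to the activator and PTGR unsorted libraries, the log2 odds ratio was 7.84 (exact 95% interval 7.33 to 8.39) at 40 to 50 kb and 4.08 (3.59 to 4.58) at 10 to 20 kb. Relative to the repressor unsorted libraries the classes lay closer, at 5.44 (5.11 to 5.77) and 3.69 (3.15 to 4.24). These classes were picked after their values were seen, and both are far above 0 with either background. Whether shared positions in the repressor libraries bear on the far class was not tested.

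**Figure D5:**
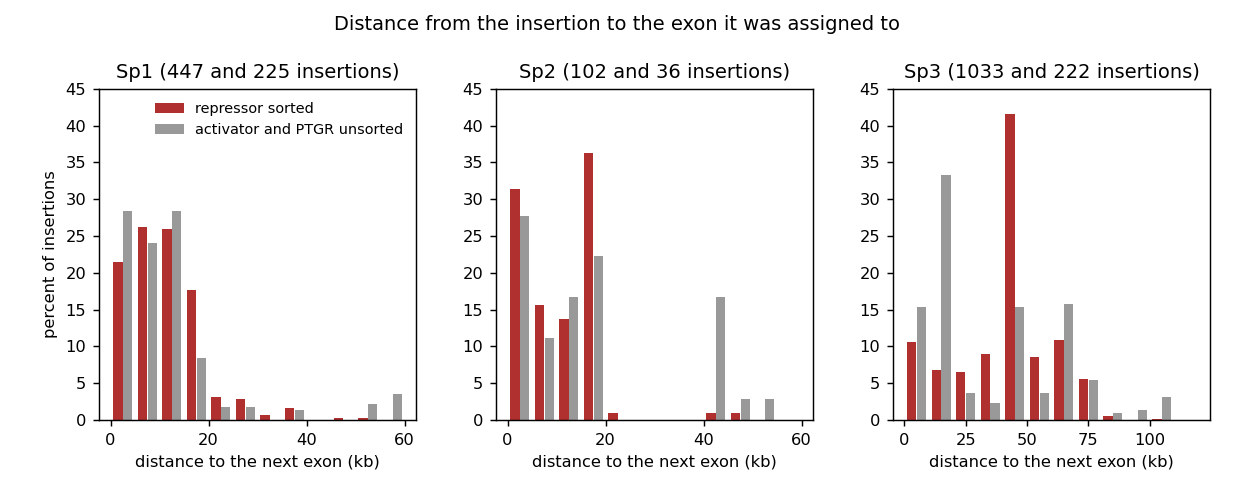
Percentage of insertions by distance to the exon they were assigned to (kb), in classes of 5 kb for Sp1 and Sp2 and 10 kb for Sp3, for repressor sorted cells (red) and for the unsorted cells of the activator and PTGR screens (grey). At Sp3, 41.5% of repressor sorted insertions lie 40 to 50 kb away, against 15.3% in those unsorted libraries.

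Neither of the other screens gave a call for any Sp gene. In the activator screen 0 of 4 tested members were called, where 4.64% of 2842 genes were. Sp1, the classical activator, had 4 and 3 sorted insertions, or 2.299 and 2.04 per 10000. Its levels in the unsorted libraries of that screen were 2.57 and 3.52. The log2 odds ratio of Sp1 was -0.75, with an exact 95% interval from -2.07 to 0.31 that includes 0. A call would have needed 29 sorted insertions. Sp3 had 4 and 1, 2.299 and 0.680 per 10000, below 3.53 and 3.23 (-1.61, exact 95% interval -3.24 to -0.37). Sp2 had 2 and 1 (0.49), and Sp7 had 6 and 3, 3.45 and 2.04 per 10000 (-0.46). Against the screen's own unsorted libraries the Sp3 value was -1.11, with an exact 95% interval from -2.76 to 0.15. Sp5, Sp8 and Sp9 had 1 sorted insertion each, and Sp4 and Sp6 had 0, which allows up to 0.935 per 10000. Of these 4 tested members, 0 had an unadjusted p below 0.05 by Fisher's exact test, and edgeR (3.6% of genes called) called 0 of the 3 it could test (Sp1, Sp3 and Sp7) and DESeq2 (2.14%) 0 of 4.

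In the PTGR screen 0 of 7 tested members were called, where 0.666% of 9303 genes were, and 0 had an unadjusted p below 0.05 by Fisher's exact test. edgeR (1.95% of genes called) called 0 of the 3 it could test (Sp1, Sp3 and Sp7) and DESeq2 (0.333%) 0 of 4 (these and Sp6). Sp1 had 18 and 6 sorted insertions, 2.95 and 1.02 per 10000, against 3.94 and 2.77 unsorted (log2 odds ratio -0.87, exact 95% interval -1.53 to -0.27). Sp3 had 18 and 19, 2.95 and 3.24 per 10000, both between its unsorted 2.77 and 3.34, with -0.62 against the merged background (-1.14 to -0.13). Sp7 had 21 and 16 (-0.32), Sp6 had 7 in all (-0.33) and Sp2 had 5 (-0.67). Sp5, with 3 insertions, and Sp8, with 4, had positive values of 1.68 and 1.396 that rest on those few insertions.

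A two-sided Fisher's exact test asked whether any member was rarer in sorted cells. At an adjusted p below 0.05 it called 0 members in each screen. Over all genes the share called lower was 0.0824% (activator), 1.79% (repressor) and 0.38% (PTGR). An unadjusted p below 0.05 was reached by 1 member among activator sorted cells (Sp3), 1 among repressor sorted cells (Sp7) and 2 among PTGR sorted cells (Sp1 and Sp3). edgeR, with 0.0667%, 1.15% and 0.236% of genes called lower in the same order, called 0 of the 3, 4 and 3 members it could test. DESeq2, with 0%, 0.242% and 0%, called 0 of 4, 6 and 4. The adjusted p by this exact test against the merged background was 0.148 for Sp1 and 0.278 for Sp3 in the PTGR screen. It was 0.295 for Sp3 in the activator screen and 0.269 for Sp7 in the repressor screen. This outcome turned on the settings. With insertions limited to 50 kb, Sp3 was called lower in the activator screen (-2.69, adjusted p = 0.0359) and in the PTGR screen (-1.10, adjusted p = 0.0313), and Sp7 in the repressor screen (-2.84, adjusted p = 0.0066), each by the exact test. These calls were made against the merged background. Without PTGR sorted replicate 1, Sp1 was called lower in that screen (-1.84, adjusted p = 0.0263 by the exact test).

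The difference between screens was tested directly with edgeR's quasi-likelihood test on all 12 libraries, as the sorted against unsorted log2 change in one screen minus that in another. Sp1, Sp2, Sp3 and Sp7 passed the filter on low counts among 2569 genes. Sp2 passed only through the repressor screen, where it is high, so its value is also given without the filter. In repressor minus activator, 3 of these 4 were higher, where 5.18% of genes were higher and 3.04% lower. These differences were 6.80 ± 0.63 for Sp3 (SE, adjusted p = 1.15e-13), 5.79 ± 0.58 for Sp1 (adjusted p = 1.71e-12) and 4.68 ± 0.80 for Sp2 (adjusted p = 3.96e-06). Without the filter, over 18560 genes of which 0.598% were higher, Sp2 had 4.58 (adjusted p = 1.51e-05 by edgeR). In repressor minus PTGR, the same 3 were higher, where 5.57% of genes were higher and 0.895% lower: 5.97 ± 0.52 for Sp3 (adjusted p = 1.68e-15), 6.38 ± 0.50 for Sp1 (adjusted p = 1.01e-16) and 5.84 ± 0.81 for Sp2 (adjusted p = 2.16e-08). Without the filter (0.603% higher) Sp2 had 5.14 (adjusted p = 5.93e-07 by edgeR). With the filter, its call was lost without PTGR unsorted replicate 1 (5.30, adjusted p = 0.0756). In activator minus PTGR no member passed (3.35% of genes were higher and 0.584% lower), and the 4 adjusted p lay between 0.831 and 0.993, with 0 members at an unadjusted p below 0.05. Sp7 did not pass in any of the 3 differences, with values between -0.33 and 0.06.

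Beyond the members, nearest protein-coding genes on either side were looked up. Amhr2, Aaas, Scrn2, Cdca7, Dnah11, Abcb5, Myo3b, Erich2, Ola1 and Cir1 were not called in any screen. Cir1 came nearest in the repressor screen, with 5 sorted against 18 background insertions (2.92, adjusted p = 0.012 by Fisher's exact test). One further gene model, Gm11084, overlaps Sp3 on the same strand and was looked at after its value was seen. It was called in the repressor screen with 4 and 7 sorted against 2 background insertions (7.23, adjusted p = 1.47e-13 by Fisher's exact test). All 11, at 10 distinct positions, lay inside Sp3 between its exon 3 (chr2:72978898-72979029) and exon 4 (chr2:72970155-72971514). Sp3 and Gm11084 therefore cannot be fully told apart by the assignment, and these 11 are not among the 1033 counted for Sp3.

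Gene lists around the family showed where else in the screens similar counts occurred. Of 28 other zinc finger factors of GC and GT boxes in the tables, 10 were tested in the repressor screen and 2 were called, against 8.18% of all genes, and the median log2 odds ratio was -0.98, against -0.39 over all tested genes. The called genes were Klf8 (244 and 112 sorted against 624 background insertions, 3.97) and Klf3 (38 and 7 against 339, 1.86), both known as repressors that bind CtBP. Klf3 was not called without repressor sorted replicate 1 (0.47). None of the list was called in the activator or PTGR screen.

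The SUMO pathway list was taken from background knowledge, since SUMO on Sp3 is known to recruit chromatin silencers. SUMO on Sp3 was not measured here, and whether it bears on the Sp3 call was not tested. Of 19 genes 14 were tested in the repressor screen and 11 were called, where 8.18% of all tested genes were, with a median log2 odds ratio of 4.45 against -0.39 over all. Among them were the SUMO genes Sumo2 (128 and 97 sorted against 119 background insertions, 5.70) and Sumo3 (5.74). They also included the histone methyltransferase gene Setdb1 (19 and 18 against 25, 5.34) and its partner Atf7ip (284 and 276 against 766, 4.34). The heterochromatin protein genes Cbx1, Cbx3 and Cbx5 (4.38 to 5.94), the chromatin remodeller genes Chd3 (5.49) and Chd4 (4.55), and L3mbtl2 (7 and 3 against 41, 2.73) were called too. None of the list was called among 4 tested in the activator screen and 13 in the PTGR screen. Without repressor sorted replicate 1, L3mbtl2 (2.299) was no longer called, and it was also lost against the screen's own unsorted libraries (2.03).

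Of 11 deacetylase and Groucho corepressors, 5 were tested in the repressor screen and 1 was called (8.18% of all tested genes), Ncor1 (256 and 136 against 998, 3.44), with a list median of -0.54, and none was in the other screens. Of 16 coactivators and partners of Sp1, 4 of 9 tested were called in the activator screen (4.64% of all tested genes), with a median of 1.26 against -0.14 over all tested genes, and in the repressor screen 0 of 8 (8.18%). The activator calls were the acetyltransferase genes Ep300 (149 and 240 against 290, 5.43) and Crebbp (17 and 30 against 184, 3.03), the Mediator gene Med14 (20 and 36 against 278, 2.68) and the TFIID gene Taf4b (4 and 17 against 21, 4.99). Taf4b was called for reversed insertions too and was lost without activator sorted replicate 2 (3.48). In the PTGR screen, where 0.666% of genes were called, Ep300 alone of 16 was (107 and 70 against 290, 2.39).

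Finally, the genes whose profile over the 12 libraries was most like that of each called member were found by Pearson's correlation of log2(insertions per 10000 + 0.1) over 12025 genes with at least 10 background insertions. The 12 libraries fall into the sorted and unsorted cells of 3 screens, so r describes chiefly the contrast with the 2 repressor sorted libraries. For Sp3 these were Ipo7 (r = 0.992), Ncor1 (0.991) and Arid1a (0.987). For Sp1 they were Zfp870 and Rcor2 (0.979 each) and Rybp (0.974), and for Sp2 they were Zfp493 (0.989), Gm6871 (0.982) and Rcor2 (0.975). Among members, r was 0.957 between Sp1 and Sp3, 0.952 between Sp1 and Sp2 and 0.938 between Sp2 and Sp3. Sp7 correlated with these 3 at -0.534, -0.621 and -0.508.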

How the data were processed

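Integration sites of the ORFtag cassette were sequenced in 12 libraries of 3 screens, with 2 sorted and 2 unsorted replicates each. Per the study's methods and the submitters' processing notes, the authors trimmed reads with Trim Galore 0.6.0, aligned them to mm10 with Bowtie2, used SAMtools 1.9, removed duplicates and reads of mapping quality 30 or less, and assigned each site to the closest downstream non-first exon of GENCODE vM25 within 200 kb. The deposited insertion lists give each position, strand, assigned gene and distance (unit other), with no read numbers. The deposited screen tables hold per-gene insertion counts of merged replicates, used only as a check, beside the authors' own odds ratios and adjusted p-values, which were not used. Sums rebuilt from the lists matched the tables in all but 3 of 27 gene-by-screen pairs, because PTGR sorted replicate 2 lists 12.7% of positions more than once. The repressor unsorted lists give 100% of positions more than once. Each position and strand was therefore counted once per library.

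Unsorted cells were taken from each transduced pool before the rest was sorted, so same-numbered libraries may be paired. The main tests left this pairing out, and the replicate number as a block was an alternative fit. Same-numbered libraries shared 5.17% and 19.2% of sorted positions in the activator screen (unlike numbers 2.35% and 1.40%), 19.5% and 6.98% in the PTGR screen (0.397% and 1.93%), and 8.50% and 8.72% in the repressor screen (10.0% and 5.47%), where the numbers were not told apart. Their deviations correlated, across genes, at 0.39, 0.25 and 0.03 in the same order.

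The members and gene lists were chosen with earlier results of these data known. The main test followed the study's: one-sided Fisher's exact test (scipy 1.17.1) of the summed sorted counts against all 6 unsorted libraries, for genes with at least 3 sorted insertions. Rarer genes were tested two-sided among genes with at least 10 insertions. Differences between screens were fitted with edgeR 4.0.16 (TMM, filterByExpr, R 4.3.3), with DESeq2 1.42.0 as an alternative. The one-sided and two-sided Fisher's exact tests in the repressor screen and edgeR's repressor minus activator difference were tried on simulated counts. The other edgeR fits and DESeq2 were not. With 2 against 2 libraries, the smallest two-sided exact permutation p is 0.333, so no such test was run. Named genes were the members, their nearest protein-coding neighbours, list genes called in any screen and the 3 most alike genes per called member. Values of some named genes are not reported here. Sequences, gene positions and exons come from GRCm38 with GENCODE vM21, and exon starts implied by position and distance were matched to it. Wilson and exact intervals cover counting error only, and 3 insertions were taken as the limit that a count of 0 allows. PCR duplicates were removed upstream without molecular identifiers.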

Additional observations from a re-analysis of the deposited data

Results flagged for a closer look

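The sorted against unsorted change of 3 Sp genes differed between screens by a direct test (edgeR's quasi-likelihood test on 12 libraries). The log2 difference between the repressor and the activator screen was 5.79 for Sp1, 4.68 for Sp2 and 6.80 for Sp3. Between the repressor and the PTGR screen it was 6.38 for Sp1, 5.84 for Sp2 and 5.97 for Sp3. The screens also differ in reporter, tag and sorting gate, and the activator and repressor reporters share a locus that the PTGR reporter does not, so these features cannot be told apart in the difference. No single unsorted library stood far from the other 5 at any Sp gene by its gap to the next value, a measure that cannot see a pair of libraries standing apart together. At Sp3 both repressor unsorted libraries (7.63 and 7.35 per 10000) lay above the other 4.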

How the results depend on the processing

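Of 859 values recomputed under other settings, 846 kept their direction and their side of the threshold or, for counts of members, stayed close to the main count, 5 counts moved, 8 values lost their call and 0 reversed. The repressor log2 odds ratio ranged over 21 alternatives from 4.48 to 5.64 for Sp1, from 4.90 to 5.69 for Sp2 and from 5.10 to 6.42 for Sp3, with the call kept in each. The differences between screens ranged over 15 alternatives from 5.50 to 5.97 (Sp1), 4.38 to 4.96 (Sp2) and 6.33 to 7.65 (Sp3) for repressor minus activator. For repressor minus PTGR they ranged from 5.61 to 7.26, 5.14 to 5.99 and 5.27 to 6.00, and Sp2 was lost without PTGR unsorted replicate 1 (5.30), which took the count of members from 3 to 2. The count of members called lower moved from 0 to 1 in each screen with insertions limited to 50 kb. In the PTGR screen it moved to 2 with every listed line counted (Sp1 -1.03 and Sp3 -0.81) and to 1 without sorted replicate 1. The causes were not tested. Limited to 10 kb, Crebbp (2.87) and Taf4b (3.61) lost their calls. The background from the other 2 screens, the leaving out of each library in the difference between screens and the repressor unsorted background for distances were chosen after seeing the data.

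With the replicate number as a block in edgeR, the repressor values were 5.64 for Sp1, 5.69 for Sp2 and 6.00 for Sp3, and the same 3 were called. The block changed no call of a member, and over all genes it moved edgeR's count of lower genes in the activator screen from 2 to 0. Leaving out replicate 1 or 2 of every group at once in the difference between screens could not be fitted. TMM shifted the median log2 change of all genes against library totals by 0.37 (activator), 0.79 (repressor) and 0.12 (PTGR). On this scale Sp7 in the repressor screen was -0.46, against -1.27 by totals. Depth limits Sp4, Sp5, Sp8 and Sp9, which had 8 to 19 background insertions.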
